A study of Mus musculus with 11 samples.

Results

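The genes described here encode sclerostin and 8 other secreted antagonists of Wnt signalling, namely Sost, Sostdc1, Dkk1, Dkk2, Dkk3, Sfrp1, Sfrp2, Sfrp4 and Wif1. Their chromatin was described through the accessible regions that overlapped each gene or the 50 kb on either side of it, with gene limits taken from GENCODE. This rule took 72 of the 94963 regions of the deposited list, around 9 of 21938 protein-coding genes, and no region was shared by a pair of members. Open chromatin was mapped by ATAC-seq (the transposase Tn5 cuts accessible DNA and attaches sequencing adapters to it) in MPC2 cells, a single conditionally immortalised clone of mouse mesenchymal progenitor cells. Undifferentiated MPC2 cells (MSCs) received DMSO vehicle (n = 3) or 50 uM FG-4592 (n = 3) for 48 hours, and cells kept in osteogenic medium for 3 weeks (osteocytes) received vehicle (n = 2) or 50 uM FG-4592 (n = 3) for the same time. FG-4592 (Roxadustat) inhibits the prolyl hydroxylases that mark hypoxia-inducible factor (HIF) for degradation. The list gave 1 value per region for all 11 samples together, taken to be log2 CPM averaged over samples, where CPM scales the Tn5 cuts in a region to the size of the library, and called the level here. No value per sample was used, so MSCs were not compared with osteocytes here, nor FG-4592 with vehicle, no error between replicates could be given, and the depth of each sample is unknown. Every value below is a description of the pooled list, and the main counts and medians are set beside the same value over all regions or all protein-coding genes.

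Canonical Wnt ligands bind a Frizzled receptor together with LRP5 or LRP6, which stabilises beta-catenin and lets it act with TCF/LEF factors in the nucleus. Sclerostin, its relative Sostdc1 (also called Wise) and the Dickkopf proteins Dkk1 and Dkk2 bind the LRP5 and LRP6 co-receptors, whereas the Sfrp proteins and Wif1 bind Wnt ligands themselves. In bone, sclerostin is made mainly by osteocytes and restrains bone formation, and a distal enhancer downstream of Sost, bound by MEF2 factors, drives its expression in osteocytes. The files used here do not mark that enhancer, so no region below is identified with it.

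Marker genes of the labelled cells were checked first. A promoter region, meaning one that came within 1000 bp of any transcript start, was present at 7 of 7 osteoblast markers, at 7 of 9 mesenchymal progenitor markers (not at Thy1 or Ly6a) and at 2 of 5 osteocyte markers (Dmp1 and Fgf23, not Mepe, Pdpn or Phex), beside 64.1% of all protein-coding genes. MSCs and osteocytes cannot be told apart in these counts.

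Positions of regions are given as the distance in base pairs of the region's midpoint from the start of the gene, negative when upstream and positive when downstream along the direction of transcription, and coordinates are mm10. The first sequences shown are from the Sost locus. They are the region closest to the Sost start, and the region that held the single match to the MEF2 consensus among the 9 regions of that locus. Each run is 200 bases of the region, written 5′ to 3′ on the strand of the gene, from its centre or, for the region at +45466, around the MEF2 match. Capitals mark matches to the motifs searched, which are the CTCF consensus in the first run and the MEF2 consensus followed by the TEAD word GGAATG in the second.

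Sost -1993 (chr11:101968908-101969107, minus strand): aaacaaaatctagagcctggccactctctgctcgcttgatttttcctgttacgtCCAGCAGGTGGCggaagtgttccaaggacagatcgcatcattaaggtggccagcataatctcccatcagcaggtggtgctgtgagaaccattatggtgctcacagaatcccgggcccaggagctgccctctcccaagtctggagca
Sost +45466 (chr11:101921655-101921854, minus strand): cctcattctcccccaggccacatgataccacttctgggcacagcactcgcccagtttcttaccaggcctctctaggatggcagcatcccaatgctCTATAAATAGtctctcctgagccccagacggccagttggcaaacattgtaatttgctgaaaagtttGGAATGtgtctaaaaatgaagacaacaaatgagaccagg

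The next run is the centre of the only region in the Dkk1 window, which held no match in these bases. It is followed by the centres of the 2 regions of highest level whose nearest coding start was Dkk3. Capitals in the region at -21310 mark the AP-1 word TGAGTCA, the TCF/LEF word CTTTGAT read on the opposite strand and the RUNX word TGTGGT read on the opposite strand. Those at +20495 mark the core of the hypoxia response element (HRE), GCGTG, and the RUNX word on the opposite strand.

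Dkk1 -4979 (chr19:30554545-30554744, minus strand): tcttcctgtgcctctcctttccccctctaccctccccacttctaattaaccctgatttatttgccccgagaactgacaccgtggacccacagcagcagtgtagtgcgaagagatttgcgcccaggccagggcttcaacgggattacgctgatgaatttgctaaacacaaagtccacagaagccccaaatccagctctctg
Dkk3 -21310 (chr7:112180267-112180466, minus strand): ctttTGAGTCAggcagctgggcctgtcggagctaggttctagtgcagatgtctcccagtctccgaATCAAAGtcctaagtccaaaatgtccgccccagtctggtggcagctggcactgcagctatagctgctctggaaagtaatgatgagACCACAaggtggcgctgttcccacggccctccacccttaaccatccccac
Dkk3 +20495 (chr7:112138463-112138662, minus strand): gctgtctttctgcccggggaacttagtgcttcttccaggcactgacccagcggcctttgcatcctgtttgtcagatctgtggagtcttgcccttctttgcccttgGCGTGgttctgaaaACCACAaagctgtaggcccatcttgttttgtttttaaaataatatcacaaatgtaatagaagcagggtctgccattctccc

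The centres of 2 further regions are shown because, with Sost -1993, they were the only ones among the 72 whose central 200 bases matched the CTCF consensus. The CTCF motif was added after the sequences had been read. Its match is the longest run of capitals in each. The other capitals mark a TCF/LEF word at Dkk2, and a RUNX and an AP-1 word at Sfrp2.

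Dkk2 +122415 (chr3:132207607-132207806, plus strand): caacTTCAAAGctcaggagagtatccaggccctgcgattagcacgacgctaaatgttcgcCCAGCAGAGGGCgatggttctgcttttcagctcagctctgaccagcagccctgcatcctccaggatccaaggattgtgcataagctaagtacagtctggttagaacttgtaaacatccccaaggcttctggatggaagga
Sfrp2 -26030 (chr3:83740192-83740391, plus strand): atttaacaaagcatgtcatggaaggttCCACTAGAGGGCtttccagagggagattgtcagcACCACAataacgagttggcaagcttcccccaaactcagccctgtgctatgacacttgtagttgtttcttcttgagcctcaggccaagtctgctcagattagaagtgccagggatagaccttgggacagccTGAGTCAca

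Promoters are shown for Sost and Sfrp2, which had no region within 1000 bp of a GENCODE start, and for Wif1, which had one. These are the 250 bases before the RefSeq transcript start (assembly GRCm38.p6), with every CpG dinucleotide in capitals. The set of promoter sequences used here covered 5 of the 9 members (Sost, Dkk1, Dkk2, Sfrp2 and Wif1). Sostdc1, Dkk3, Sfrp1 and Sfrp4 were not in that set, although RefSeq lists transcripts of all 4.

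Sost promoter (chr11:101967016-101967265, minus strand): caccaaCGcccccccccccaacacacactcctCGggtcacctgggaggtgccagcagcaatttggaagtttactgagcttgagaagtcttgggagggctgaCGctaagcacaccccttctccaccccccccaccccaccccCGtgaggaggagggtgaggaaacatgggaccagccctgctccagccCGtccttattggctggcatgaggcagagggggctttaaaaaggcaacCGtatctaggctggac
Sfrp2 promoter (chr3:83766071-83766320, plus strand): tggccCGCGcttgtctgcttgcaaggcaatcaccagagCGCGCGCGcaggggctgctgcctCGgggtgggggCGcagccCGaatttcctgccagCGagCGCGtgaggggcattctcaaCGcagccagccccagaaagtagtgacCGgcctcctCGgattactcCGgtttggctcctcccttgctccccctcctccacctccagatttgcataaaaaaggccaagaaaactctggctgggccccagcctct
Wif1 promoter (chr10:121033754-121034003, plus strand): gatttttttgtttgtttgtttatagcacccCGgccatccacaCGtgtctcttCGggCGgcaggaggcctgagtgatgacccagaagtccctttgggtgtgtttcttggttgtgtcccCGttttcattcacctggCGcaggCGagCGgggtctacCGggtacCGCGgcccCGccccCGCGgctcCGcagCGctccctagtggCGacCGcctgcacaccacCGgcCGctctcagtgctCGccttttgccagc

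The Sost promoter held 6 CpG dinucleotides, Sfrp2 held 16 and Wif1 held 21, against a median of 6 over all 32851 promoters of that set. Dkk1 held 6 and Dkk2 held 7.

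The members differed widely in how many regions surrounded them. Dkk3 had 18 regions, Sfrp1 had 16, Sfrp4 had 10, Sost had 9, Sfrp2 and Wif1 had 7 each, Sostdc1 and Dkk2 had 2 each, and Dkk1 had 1. The median protein-coding gene had 8 regions in its window (quartiles 3 and 13), so that 4 of the 9 members lay above the median gene, where 49.1% of all protein-coding genes did. Dkk3 had more regions than 89.4% of protein-coding genes and Sfrp1 more than 84.2%. At the other end, Dkk1 had more than 13.3%, and Sostdc1 and Dkk2 more than 17.6%; 21.4% of protein-coding genes had at most 2 regions.

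**Figure D1:**
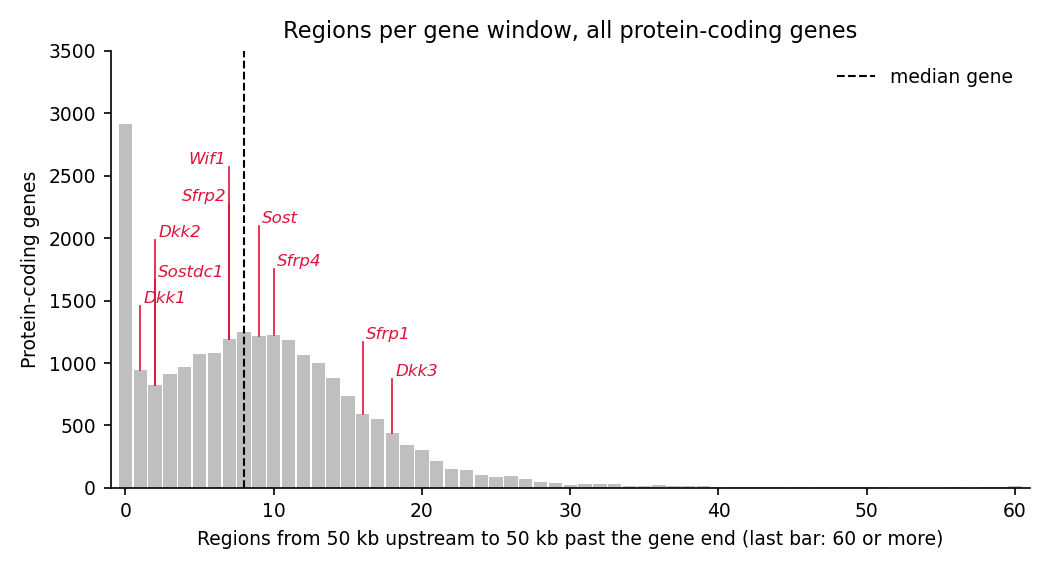
Number of accessible regions (x axis) from 50 kb upstream to 50 kb past the end of each protein-coding gene, with the number of genes on the y axis and each member marked by a red line. The dashed line is the median gene at 8 regions. Dkk1, Sostdc1 and Dkk2 sit at 1 or 2 regions and Sfrp1 and Dkk3 at 16 and 18.

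Long genes have wider windows, and per 100 kb of window the order of the members was the same. Dkk3 had 12.6 regions per 100 kb, Sfrp1 had 11.6, Sfrp4 had 9.1, Sost had 8.61, Sfrp2 had 6.48, Wif1 had 4.2, Sostdc1 had 1.92, Dkk2 had 1.03 and Dkk1 had 0.963, against 6.22 for the median gene. The summed signal followed a similar order. Per 100 kb it came to 113 CPM at Dkk3, 83.5 at Sfrp4, 83.2 at Sfrp1, 55.5 at Sost, 43.9 at Sfrp2, 36.1 at Wif1, 5.32 at Dkk1, 3.34 at Sostdc1 and 2.03 at Dkk2, against 71.6 for the median gene. Dkk3, Sfrp4 and Sfrp1 were above the median gene in signal per length. For Sfrp4 this rested on regions nearer to a neighbour, since 43.6 of the 91.8 CPM in its window came from regions nearest to Sfrp4, and its summed signal was below the 100 CPM of the median window.

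Most of these windows held no other coding start. Besides the member's own start, the Sost window contained 2 protein-coding starts (Dusp3 and Cfap97d1), the Sfrp4 window contained 1 (Epdr1), and the other 7 windows contained 0. Of all 21938 protein-coding genes, 3911 had no other coding start in their window, and among these the median was 5 regions. Against these genes, Dkk3 had more regions than 89.6%, Sfrp1 than 86.5%, Sfrp2 and Wif1 than 57.7%, Sostdc1 and Dkk2 than 30.7% and Dkk1 than 22.4%. The nearest protein-coding start was the member's own for 59 of the 72 regions, a count with no share over all genes beside it. The other 13 lay at Sost (5 of 9 regions), Dkk3 (4 of 18) and Sfrp4 (4 of 10). A nearest start does not show which gene a region acts on.

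**Figure D2:**
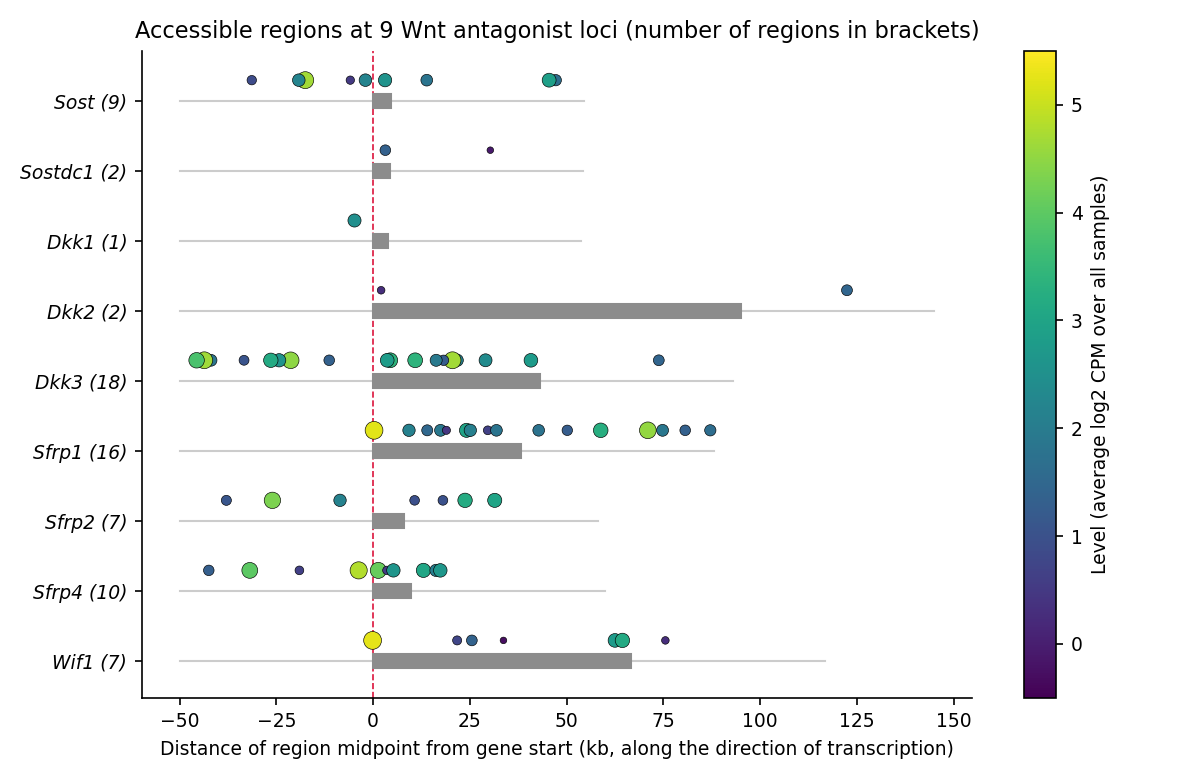
Accessible regions at the 9 loci, with the distance of each region's midpoint from the gene start in kb on the x axis and 1 row per gene (number of regions in brackets). The grey bar is the gene, the thin line is the window, the dashed line is the gene start, and colour and size of a point give the level (average log2 CPM). Only Sfrp1 and Wif1 have a point on their start, both above 5, and Dkk1, Dkk2 and Sostdc1 have 1 or 2 points each.

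The levels of the 72 regions ran from -0.27 to 5.25 with a median of 2.09 (quartiles 1.33 and 3.08), against a median of 2.12 (quartiles 1.23 and 3.35) over all regions, and 34 of the 72 lay above the median of all regions. A level of 4 or more was found in 10 regions (13.9%), against 17.1% of all regions. Widths ran from 200 to 1519 bp with a median of 450.5 bp, against 460 bp over all regions. Wide regions collect more cuts, and the correlation of log2 width with level was 0.92 over the 72 regions (Spearman's rho 0.92) and 0.90 over all regions; the points share the same pooled libraries. Levels are therefore also given below as the share of all regions within 10% of the same width that had a lower level, called the rank among regions of like width. The median rank of the 72 regions was 40.9%, so that they lay somewhat below the middle of regions of like width. Among regions of at least 500 bp, the 33 at these loci had a median level of 3.15, against 3.48 for all such regions.

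By position, 30 of the 72 regions overlapped the body of a member (median level 2.10), 21 lay upstream (median 2.21) and 21 lay downstream (median 1.79). Against the annotation of all genes, 8 were promoter regions (11.1%, against 22.7% of all regions), 5 overlapped exons (6.94% against 6.73%), 27 lay in introns (37.5% against 37.3%) and 32 were intergenic (44.4% against 33.3%). Of the 8 promoter regions, 3 were at the start of a member and 5 were at the start of another gene only. The 64 regions outside promoters had a median level of 1.93, against 1.89 for all such regions.

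**Figure D3:**
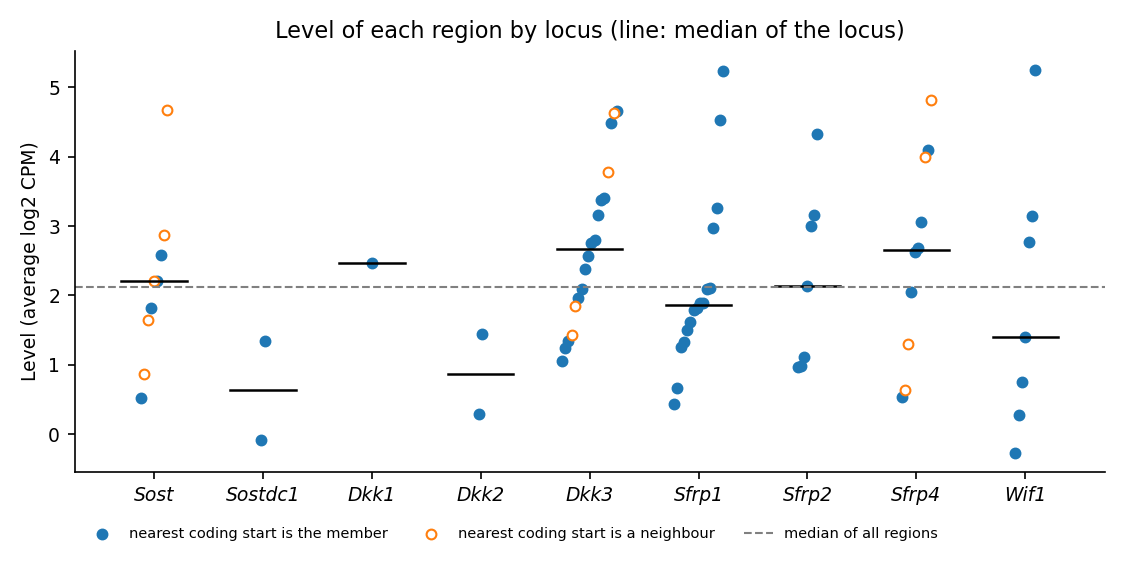
Level of each of the 72 regions in average log2 CPM (y axis) by locus (x axis), filled where the nearest protein-coding start is the member's and open where it is a neighbour's. The short lines are the medians of each locus and the dashed line is the median of all regions, 2.12. The 2 highest points are the regions at the starts of Wif1 (5.25) and Sfrp1 (5.24).

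A promoter region was present at 3 of the 9 members, Sfrp1, Sfrp4 and Wif1, whereas 64.1% of protein-coding genes had one. The closest region to the gene start lay 1817 bp away at Sost, 1954 bp at Dkk2, 2940 bp at Sostdc1, 3413 bp at Dkk3, 4675 bp at Dkk1 and 8286 bp at Sfrp2. With RefSeq transcript starts, added after the data had been seen, the closest region to a Sost start lay 362 bp away and 4 of the 9 members had a promoter region, against 65.0% of protein-coding genes.

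Starts with many CpG dinucleotides are open in most tissues, so the members were split by the sequence within 500 bp of the gene start. A start was called CpG-rich at a GC content of at least 55% and a ratio of observed to expected CpG of at least 0.6. Among all protein-coding genes, 91.7% of those with a CpG-rich start and 46.9% of the others had a promoter region. Of the 3 members with a CpG-rich start, Sfrp1 (ratio 1.04) and Wif1 (0.682) had one and Sfrp2 (0.788) did not. Sfrp2 was thus among the 694 CpG-rich coding starts (8.26%) without a region. Of the other 6 members, Sfrp4 (0.503) had one, and Sost (0.215), Sostdc1 (0.216), Dkk1 (0.445), Dkk2 (0.479) and Dkk3 (0.425) did not. Dkk3 combined many regions with none at its start. Among the 1009 protein-coding genes with at least 18 regions and a start that was not CpG-rich, 13.9% had no promoter region, and Dkk3 was one of these.

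**Figure D4:**
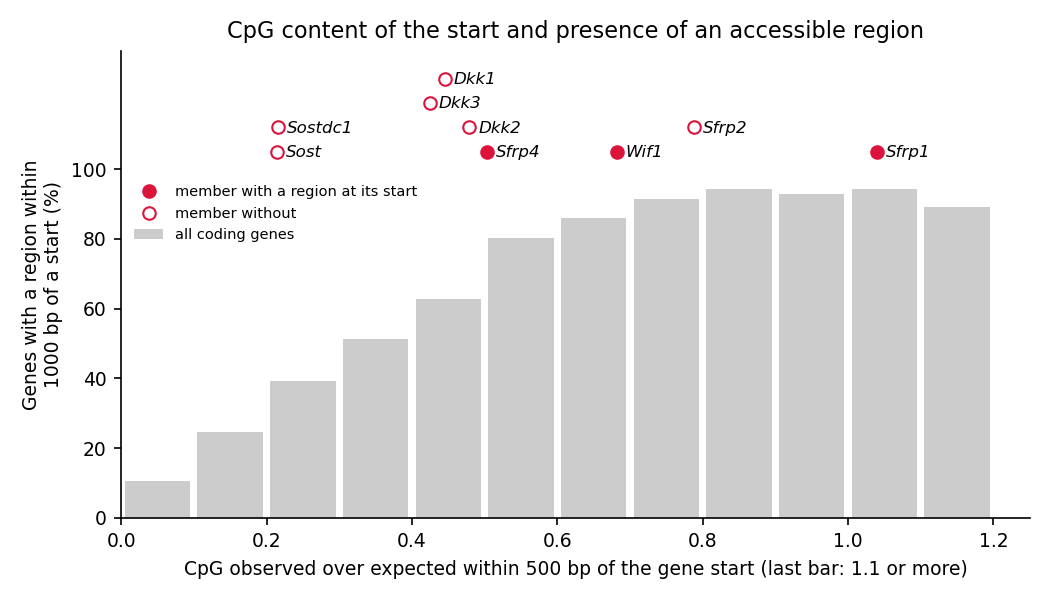
Percent of protein-coding genes with a region within 1000 bp of a GENCODE transcript start (y axis) in bins of the observed over expected CpG ratio around the gene start (x axis), as grey bars. Circles above the bars place each member at its own ratio, filled where it had a promoter region (Sfrp1, Sfrp4 and Wif1) and open where it had none; their height carries no value. The share with a region is smallest in the bins of lowest ratio, and Sfrp2 is the open circle furthest to the right.

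Other genes of the pathway were counted in the same way. A promoter region was present at 6 of 9 further secreted antagonists and inhibitors (Draxin, Frzb, Igfbp4, Notum, Sfrp5 and Trabd2b, but not Cer1, Dkk4 or Dkkl1) and at 14 of 16 receptors and co-receptors (not at Fzd10 or Kremen2), beside the 64.1% of all protein-coding genes. CpG content moved with this count, since all 6 of those antagonists and 15 of the 16 receptors had a CpG-rich start, and its part in these counts was not tested. Among starts that were not CpG-rich, a promoter region was present at 1 of 6 members, 0 of 3 further antagonists and 0 of 1 receptor, beside 46.9% of all such coding genes. Of the 5 co-receptors bound by sclerostin or the Dickkopf proteins, Lrp5 (level 3.95), Lrp6 (5.11), Lrp4 (5.71) and Kremen1 (5.36) had a region over their start, and the region closest to Kremen2 lay 2900 bp away. The median number of regions per window was 7 for the members, 10 for the further antagonists and 12.5 for the receptors.

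Sost (chr11:101962458-101967015, minus strand) encodes sclerostin, and its 9 regions comprised 5 upstream, 1 over the gene and 3 past the gene end. The closest region, at -1993 bp, was 353 bp wide and had a level of 2.21, higher than 85.8% of regions of like width. Its centre held a match to the CTCF consensus, a motif added after the sequences had been read, at chr11:101969042-101969053. A whole-region match was found in 5.15% of regions of like width. The region over the gene, at +3076 bp, was 600 bp wide and covered coding sequence and untranslated sequence of exon 2, with a GC content of 70.0% and a level of 2.58, higher than 51.0% of regions of like width.

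Past the end of Sost, the region at +13850 bp lay 9293 bp beyond the gene, at the start of the antisense transcript 4930417O22Rik, with a level of 1.81 (rank 27.0%). The regions at +45466 bp and +47177 bp lay 40909 bp and 42620 bp beyond the gene, and their nearest coding start was that of Meox1, which encodes a homeodomain factor. The first was 825 bp wide with a level of 2.87 (rank 24.5%), and the second was 320 bp wide with a level of 1.64 (rank 66.8%). The first held the MEF2 match shown above, at chr11:101921750-101921759; 9.68% of regions of like width held such a match. Between +13850 and +45466 bp, a stretch of 30967 bp held no region, the longest gap of the locus.

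Upstream of Sost the strongest region, at -17541 bp, was 1009 bp wide with a level of 4.68 and lay at the promoters of Cfap97d1 and of Dusp3, which encodes a dual-specificity phosphatase. The region at -19215 bp also lay at a Dusp3 start, with a level of 2.201 (rank 92.7%). The region at -5904 bp overlapped an exon of Dusp3 with a level of 0.51, and that at -31363 bp had a level of 0.87. The 4 regions whose nearest coding start was Sost summed to 15.6 CPM, and all 9 summed to 58.0 CPM, so that most of the signal of the window was nearer to a neighbour's start.

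Sostdc1 (chr12:36314139-36318452, plus strand), which encodes an antagonist of both Wnt and BMP signalling, had 2 regions. The one at +3144 bp covered coding and untranslated sequence of exon 2, was 409 bp wide and had a level of 1.35 (rank 14.9%). The one at +30269 bp had the minimum width of 200 bp and a level of -0.09 (rank 2.45%). Both were low for their width and both held a TCF/LEF word in their centre.

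Dkk1 (chr19:30545863-30549665, minus strand), an inhibitor of canonical Wnt signalling through LRP6, had its single region at -4979 bp. It was 610 bp wide with a level of 2.47, higher than 40.4% of regions of like width. The only motif word in it was a TCF/LEF word at chr19:30554478-30554484, outside the centre shown above. Dkk2 (chr3:132085292-132180304, plus strand), which can act as an agonist or antagonist at LRP6, had a region of 200 bp in intron 1 at +2053 bp with a level of 0.29 (rank 20.7%) and one of 267 bp past the gene at +122415 bp with a level of 1.45 (rank 77.3%). The gap between them, 120128 bp, was the longest of any member.

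Dkk3 (chr7:112116017-112159057, minus strand), the divergent member of the Dickkopf family, was the richest locus, with 8 regions upstream, 9 over the gene and 1 past its end. Its 14 regions nearest to the Dkk3 start summed to 117 CPM of the 162 CPM of the window. The strongest was a region of 1378 bp in intron 4, at +20495 bp, with a level of 4.66 (rank 33.3%). The next, at -21310 bp, was intergenic and 871 bp wide with a level of 4.48 (rank 81.7%). The third, at +4419 bp in intron 2, was 750 bp wide with a level of 3.40 (rank 65.4%). The remaining 11 regions nearest to Dkk3 ran from 1.05 to 3.37, and the 4 nearest to Usp47 or Mical2 ran from 1.43 to 4.63. The median gap between neighbouring regions was 4954 bp.

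Sfrp1 (chr8:23411502-23449632, plus strand) had no upstream region, 9 over the gene and 7 past its end. The region over its start was the widest of the 72, at 1519 bp, with a level of 5.24 (rank 46.0%), and it covered exon 1. The 8 other regions over the gene all lay in intron 2, with levels from 0.44 to 2.97, the highest at +24112 bp. Past the gene end the strongest region lay at +70969 bp and was 1297 bp wide with a level of 4.53 (rank 35.0%), and the next was at +58791 bp with a level of 3.26 (rank 27.2%). Sfrp2 (chr3:83766321-83774316, plus strand) had 3 upstream regions, 0 over the gene and 4 past its end. Its strongest region, at -26030 bp, was 1070 bp wide with a level of 4.32 (rank 51.4%). The region at +23740 bp, at the start of the antisense transcript Gm26771, had a level of 3.16 (rank 19.5%) and that at +31410 bp had a level of 2.99 (rank 5.73%). The remaining 4 ran from 0.97 to 2.13.

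Sfrp4 (chr13:19623104-19632994, plus strand) had 10 regions. The region counted at its start began 973 bp after the first base of the gene, was 695 bp wide and covered the first exon of an internal transcript (ENSMUST00000222992). Its level of 4.10 was higher than that of 91.5% of regions of like width. The next regions nearest to the Sfrp4 start lay past the gene at +12983 bp (level 3.06, rank 33.8%) and +17343 bp (level 2.69, rank 56.0%), followed by one in intron 4 at +5228 bp (level 2.63, rank 88.6%). The highest level of the window, 4.82 at -3745 bp, belonged to the promoter of Epdr1, which encodes a secreted ependymin-related protein. Wif1 (chr10:121033960-121100650, plus strand) combined the highest and the lowest level of the 72 regions. The region over its start, at -145 bp, was 1351 bp wide with a level of 5.25 (rank 58.8%), and the region at +33664 bp in intron 2 was 202 bp wide with a level of -0.27 (rank 0.834%). Towards the 3′ end of the gene, the region at +64396 bp in intron 9 had a level of 3.15 (rank 52.9%) and that at +62476 bp, over exons 8 and 9, had a level of 2.77. The remaining 3 ran from 0.28 to 1.39.

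Motif words were counted on both strands in the central 200 bp of each region, where matches that overlapped on opposite strands counted once. The HRE core, ACGTG or GCGTG, to which HIF binds, was in 17 of the 72 regions (23.6%, 95% Wilson interval 15.3 to 34.6), against 24.2% of all regions. The intervals given for these shares cover counting error only and treat the 72 regions as independent, though they lie at 9 loci. The AP-1 word TGAGTCA, bound by Fos and Jun dimers, was in 11 (15.3%, interval 8.75 to 25.3, against 12.1%), and the RUNX words TGTGGT and TGCGGT in 21 (29.2%, interval 19.9 to 40.5, against 25.2%). The TEAD word GGAATG was in 13 (18.1%, interval 10.9 to 28.5, against 14.0%). The consensus of MEF2 was in 1 region, Sfrp2 +31410 (1.39%, interval 0.246 to 7.46, against 2.03%), and that of CTCF, added after the sequences had been read, was in 3 (4.17% against 3.42%). The MEF2 match at Sost +45466 lay outside the central 200 bp. Over whole regions, 4 of the 72 held a MEF2 match (5.56%, against 5.59% of all regions).

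The TCF/LEF words CTTTGAT and CTTTGAA, through which beta-catenin acts, were in 9 regions (12.5%, interval 6.72 to 22.1), against 6.23% of all regions. The ratio of these shares was the highest of the 7 motifs in the centres of the 72 regions, but not in whole regions or in those of at least 500 bp, and no test was run on it. In whole regions the share was 26.4%, against 16.6% in regions of like width. Among the 33 regions of at least 500 bp it was 6.06% in the centre, against 6.13% of all such regions, and only 2 of the 9 regions were this wide. The 9 regions were spread over Wif1 (3 regions), Sostdc1 (2), and Dkk2, Dkk3, Sfrp2 and Sfrp4 (1 each); none was at Sost, Dkk1 or Sfrp1. A word match does not show that a factor bound there.

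**Figure D5:**
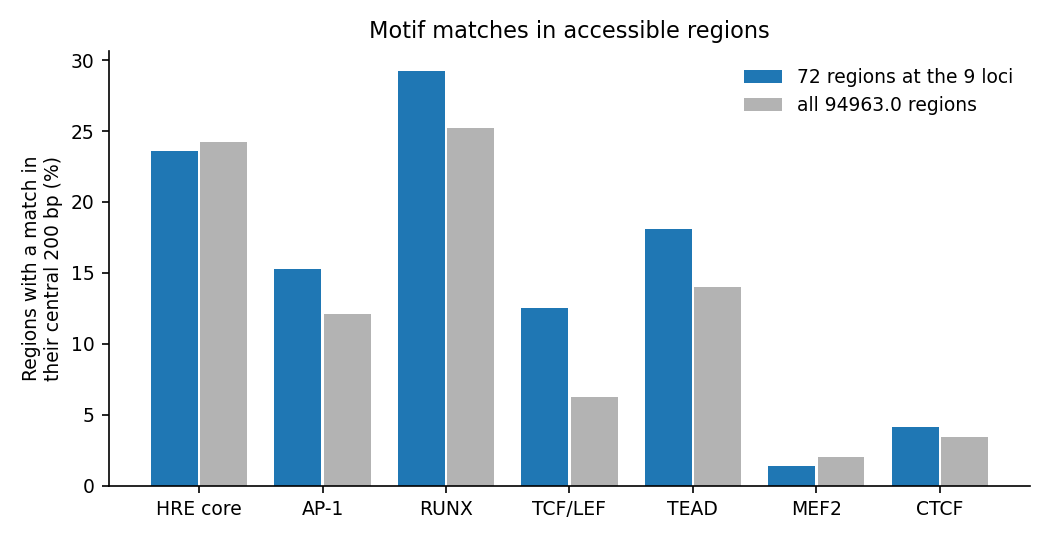
Percent of regions with at least 1 match in their central 200 bp (y axis) for each motif searched (x axis), in blue for the 72 regions at the 9 loci and in grey for all 94963 regions. The TCF/LEF bars differ most in ratio, at 12.5% and 6.23%, and the HRE core bars are at 23.6% and 24.2%.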

How the data were processed

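Per the labels and the methods, the authors trimmed reads with Trim Galore, aligned them to mm10 with Bowtie2, removed duplicates with Picard 2.17.8, called peaks with MACS2 2.2.7.1, merged the peaks of several samples, removed blacklisted regions, counted cuts per region with pyDNase and normalised with TMM in edgeR 3.24.3. A Tn5 shift of read ends is not given in the sources used here, and the authors removed 1 sample of poor quality. Region width depends on which libraries contributed peaks to the merge. The deposited file held 94963 regions with 1 value each, read as log2 CPM averaged over all samples; this was inferred from the values, of which 460 were below 0 and which summed to 1012761 after raising 2 to their power. The 11 samples have no separate values here, so their depth is unknown, and no test was run.

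Regions were matched to GENCODE genes (50 kb flanks) and transcript starts (1000 bp), and motifs were sought in the mm10 sequence, with Python 3.11.15, numpy 2.4.6, pandas 2.3.3, scipy 1.17.1 and matplotlib 3.10.9. Region sequences came from the mm10 reference. The counting was tested on simulated data, where 500 of 500 window counts and 1400 of 1400 implanted motifs were recovered. The genes and lists were chosen with earlier results of these data known. Named were all regions at Sost. For the other members, each promoter region of the member and the 3 regions of highest level nearest to it were named. Where there were fewer than 3, all were named. The levels of other regions were given only in part. Alternatives were other flanks (20 and 100 kb), promoter widths (500 and 2000 bp), a width minimum of 500 bp, joined regions, other backgrounds and whole-region motif searches. A count over markers of other cell types is not reported here.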

Additional observations from a re-analysis of the deposited data

How the results depend on the processing

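No paired analysis was possible because all samples share 1 value per region and no test was run, and for the same reason no replicate could be left out. Over the alternatives, 41 values stayed within 1.5 times the reported count, or inside the 95% interval of the reported share or median, and 13 did not. Flanks of 100 kb gave 120 regions, and flanks of 20 kb left 0% of regions with a MEF2 match in their centre. A minimum width of 500 bp left 33 regions, of which 27 were nearest to a member, with a median level of 3.15 (3.48 for all regions of that width) and a TCF/LEF share of 6.06% (6.13% for all). The median rank among regions of like width, 40.9%, is counted among the 13 but is in another unit than the level, so it says nothing about stability. A promoter limit of 2000 bp gave 5 of 9 members with a promoter region, Sost and Dkk2 being added, against 67.0% of protein-coding genes. Searching whole regions, and so more bases, gave 45.8% for the HRE core (46.2% of all regions), 26.4% for AP-1 (22.1%), 51.4% for RUNX (48.2%), 26.4% for TCF/LEF (16.9%), 37.5% for TEAD (31.5%), 5.56% for MEF2 (5.59%) and 8.33% for CTCF (4.87%). The number of members with more regions than the median gene ranged from 3 to 6, the highest against genes with as many other coding starts, an alternative added after the data had been seen. The depth of each sample is unknown, and differences between groups were not analysed here.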
